A study of Rattus norvegicus with 8 samples.

Results

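The enzymes of fatty acid synthesis and their transcription factor SREBP-1 were examined in a rat limb muscle after prolonged thyroid hormone excess. The 7 genes are Acly, Acaca, Acacb, Fasn, Elovl6, Scd and Srebf1, chosen by name. Every probe set that the platform annotation assigns to one of these symbols alone was taken, which gave 11 of the 31099 probe sets on each array. Fasn, Acaca, Srebf1 and Elovl6 have 2 probe sets each, and Acacb, Acly and Scd have 1 each.

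RNA was taken from tibialis anterior, a mainly fast-twitch lower leg muscle, of adult Sprague-Dawley rats weighing 200 ± 40 g at the start. The hyperthyroid group of 4 rats (replicates 1, 2, 3 and 5) was injected intraperitoneally with triiodothyronine (T3), 25 µg for each 100 g of body weight, every 2 days over 6 weeks, and was killed 24 hours after the last dose. The control group of 4 rats (replicates 7, 8, 9 and 11) is labelled as untreated, and no sham injection is stated. Each rat gave 1 Affymetrix array, each group held 3 males and 1 female, and the arrays of the females are not identified in the labels.

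Cells make fatty acids from citrate that leaves the mitochondria. ATP citrate lyase (Acly) turns citrate into acetyl-CoA, acetyl-CoA carboxylase (Acaca in the cytosol, Acacb at the mitochondrial membrane) makes malonyl-CoA, and fatty acid synthase (Fasn) builds palmitate from it. Elovl6 lengthens palmitate and stearoyl-CoA desaturase (Scd) introduces a double bond. SREBP-1, the product of Srebf1, switches these genes on after it is released from the membrane by cleavage. In liver and fat T3 is a known inducer of this pathway, whereas in skeletal muscle malonyl-CoA from Acacb is known chiefly as a brake on fatty acid entry into mitochondria through Cpt1b.

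The sequences at the 2 annotated start sites of Srebf1, the regulator of the other genes, are shown first. They come from RefSeq (build GRCr8, minus strand, 250 bases before and 50 after each start). Of the 7 genes, 4 had a window in that table, and Fasn, Acaca and Elovl6 had none. Capitals mark GC boxes (GGGCGG, bound by Sp1) and CCAAT boxes (CCAAT, bound by NF-Y), both read on both strands. In the downstream window they also mark the coding start, read on the strand shown only. The downstream window is chr10:45518961-45519260 and the upstream window is chr10:45529115-45529414.

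Srebf1 downstream start: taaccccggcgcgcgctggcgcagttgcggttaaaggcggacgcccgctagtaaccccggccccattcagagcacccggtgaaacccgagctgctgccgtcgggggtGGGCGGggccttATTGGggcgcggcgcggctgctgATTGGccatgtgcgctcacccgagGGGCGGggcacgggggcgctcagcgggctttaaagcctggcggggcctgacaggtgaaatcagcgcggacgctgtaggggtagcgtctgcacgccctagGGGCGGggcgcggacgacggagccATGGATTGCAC

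Srebf1 upstream start: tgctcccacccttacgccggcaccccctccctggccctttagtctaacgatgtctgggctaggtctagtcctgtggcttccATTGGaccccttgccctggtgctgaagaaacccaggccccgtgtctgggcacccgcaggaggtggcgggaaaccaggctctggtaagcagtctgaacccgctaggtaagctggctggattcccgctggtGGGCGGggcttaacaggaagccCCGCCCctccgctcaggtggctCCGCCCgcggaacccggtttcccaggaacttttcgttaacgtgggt

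Each Srebf1 window held 3 GC boxes, a motif present in 33.1% of all 33469 promoter windows of the same length. The downstream window held 2 CCAAT boxes and the upstream window 1 (37.5% of all windows have at least 1). The downstream window ends with an ATG, 39 bases after the start site, followed by codons for aspartate and cysteine, which are known as the first residues of the SREBP-1c isoform. Neither window held the sterol regulatory element searched (TCACNCCAC, 1.12% of windows), the E-box CACGTG (6.42%) or AGGTCA, the core hexamer bound by nuclear hormone receptors (16.2%). The Scd window held none of these 5 motifs. The Acly window held 3 GC boxes and 1 CCAAT box, and that of Acacb held 1 CCAAT box and 2 copies of the hexamer. None of the windows held the hexamer repeated with a spacing of 4 bases (0.00598% of all windows). These matches describe the letters of the windows only, and which Srebf1 isoform each probe set detects was not examined.

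The arrays had medians of 38.8 to 42.0 intensity units in the hyperthyroid group and 43.5 to 54.9 in the control group, without overlap. The scale has the same trimmed mean on every array. Skeletal muscle markers were present at high intensity on every array (Ckm 39275 to 63514). Their sum was lower in the hyperthyroid group (280144 to 342325, against 342583 to 403279). These ranges did not overlap, but hyperthyroid replicate 2 and control replicate 7 nearly met. Of the 11 skeletal muscle markers measured, 9 had log2 fold changes below 0 and 6 an unadjusted limma p under 0.05 (median -0.32). None passed after adjustment. All 9 smooth muscle markers also lay below 0 (median -0.41). The part of these shifts in the lipogenic values was not tested. None of the 7 hepatocyte markers with a probe set passed the filter on low values. Control replicate 11 had the lowest median correlation with the other arrays (0.865, the others 0.886 to 0.909). The summed intensity of 10 slow-fibre markers was far higher on control replicates 7 and 11 (50293 and 33475) than on the other 6 arrays (1562 to 10145). All 10 had log2 fold changes below 0 (median -2.71), 6 with an unadjusted limma p under 0.05 and none passing after adjustment. The groups overlapped for each of these markers. The precision of every value is limited by 4 arrays per group, and RNA from fewer cells of a type cannot be told apart from less RNA per cell.

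No lipogenic gene differed between the groups past the test. Of the 11 probe sets, 6 lay above the filter on low values (a mean over arrays of log2(intensity + 3.41) above 4.69), namely both of Srebf1, both of Acaca, and 1 each of Fasn and Acly. Scd, Acacb, both probe sets of Elovl6 and the other probe set of Fasn lay below it. None of the 6 passed at a limma adjusted p of 0.05, against 0.0322% of all 18625 probe sets, and none had an unadjusted p under 0.05, against 9.68%. That second count was 2 of 6 after median centring or without hyperthyroid replicate 1. Array weights gave 1 of 6, as did leaving out control replicates 7 and 11 together. Dropping hyperthyroid replicate 5 alone, or control 7 or control 9 alone, also gave 1 of 6. The remaining alternatives with a filter gave 0. The matching share of all probe sets was not counted under these alternatives, so 9.68% holds for the main fit only. In a fit with no filter none of the 11 passed either (background 0.0515%), and 3 of 11 had an unadjusted p under 0.05, against 8.18% of 31042 probe sets. Those 3 were Srebf1 1388426_at and Scd, both higher in hyperthyroid muscle, and Elovl6 1394401_at, which was lower. The groups overlapped for all 11. They did not overlap for 6.15% of the probe sets above the filter and 5% of all probe sets, so finding none among 11 is near that background.

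**Figure D1:**
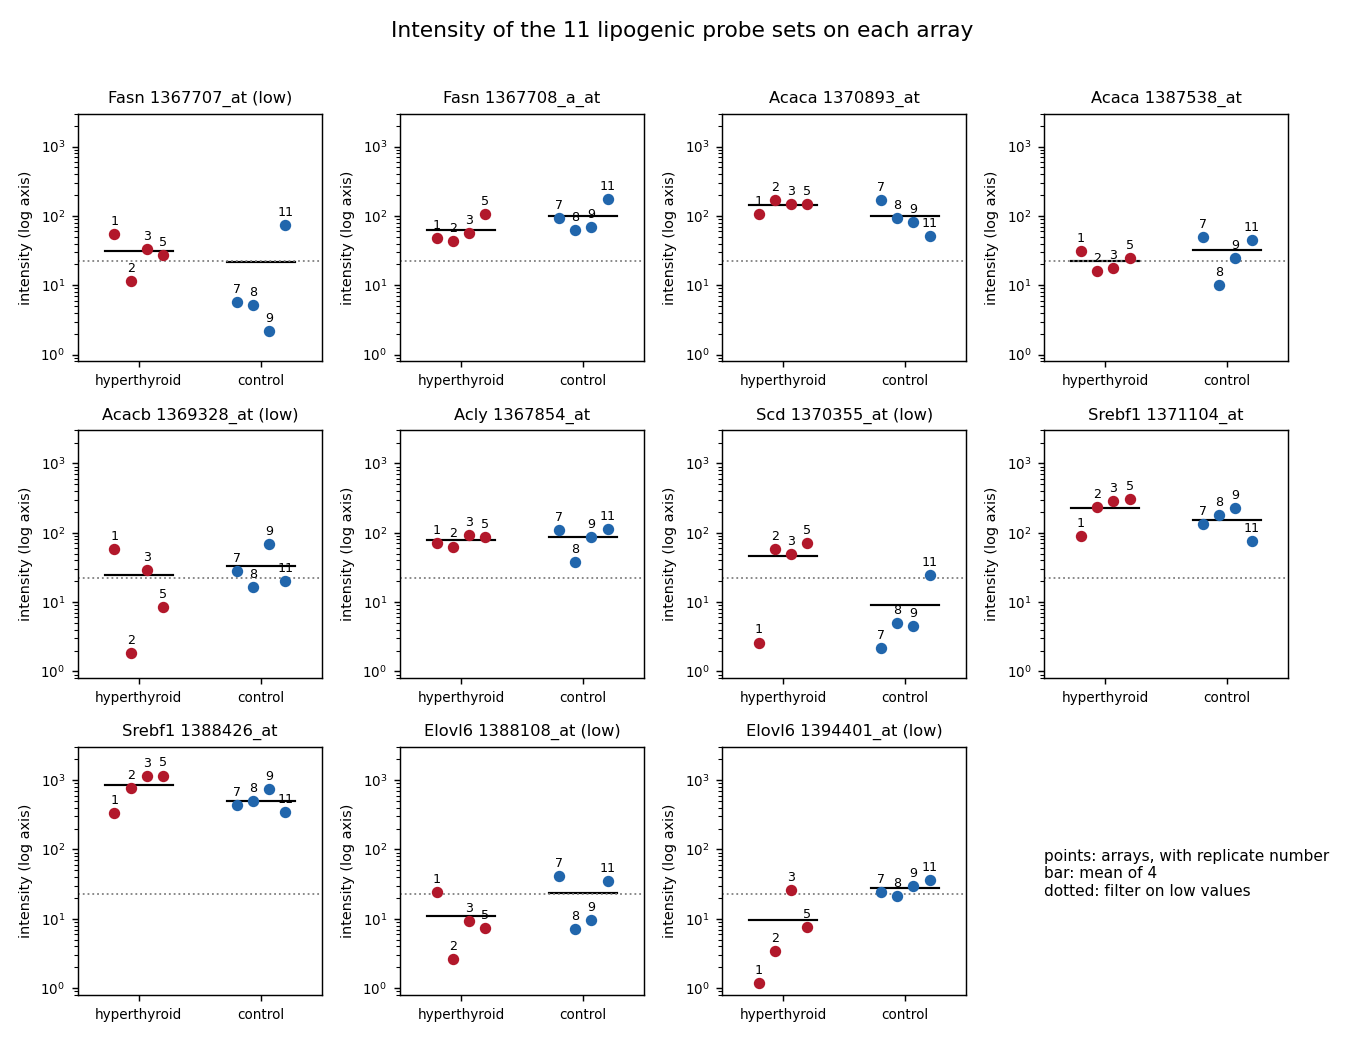
Intensity (log axis) of the 11 probe sets on each of the 8 arrays, hyperthyroid in red and control in blue, with replicate numbers, a bar at the mean of 4 arrays and a dotted line at the filter on low values, which applies to the mean log2 value and not to the bar. Srebf1 1388426_at lies at 771 to 1166 on hyperthyroid replicates 2, 3 and 5 and at 334 on replicate 1, and the controls lie at 342 to 740.

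The regulator had the highest levels on 3 of the 4 hyperthyroid arrays. Srebf1 1388426_at read 334, 771, 1164 and 1166 on hyperthyroid replicates 1, 2, 3 and 5, against 439, 499, 740 and 342 on control replicates 7, 8, 9 and 11. Hyperthyroid replicates 2, 3 and 5 were above every control, while replicate 1 was the lowest of all 8 arrays. The means were 859 ± 396 and 505 ± 169.8 (SD, n = 4 each). The log2 fold change was 0.66 with a 95% interval of -0.078 to 1.40 (SE 0.34, limma adjusted p = 0.564). The upper end of that interval allows a difference larger than the estimate, and its lower end includes 0.

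The second Srebf1 probe set ran nearly in parallel. Srebf1 1371104_at read 89.7, 233, 287 and 304 on hyperthyroid replicates 1, 2, 3 and 5, against 134, 180, 226 and 75.0 on control replicates 7, 8, 9 and 11. Again 3 hyperthyroid arrays stood above every control, although replicate 2 did so by a small margin (233 against 226), and replicate 1 lay near the bottom. Its log2 fold change was 0.53 ± 0.39 (SE, limma adjusted p = 0.689). Without hyperthyroid replicate 1 the values were 1.06 and 0.92 for the 2 probe sets (adjusted p = 0.245 and 0.457), and without both control replicates 7 and 11 they were 0.34 and 0.037 (adjusted p = 0.834 and 0.983). For neither probe set did any alternative end in a call.

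**Figure D2:**
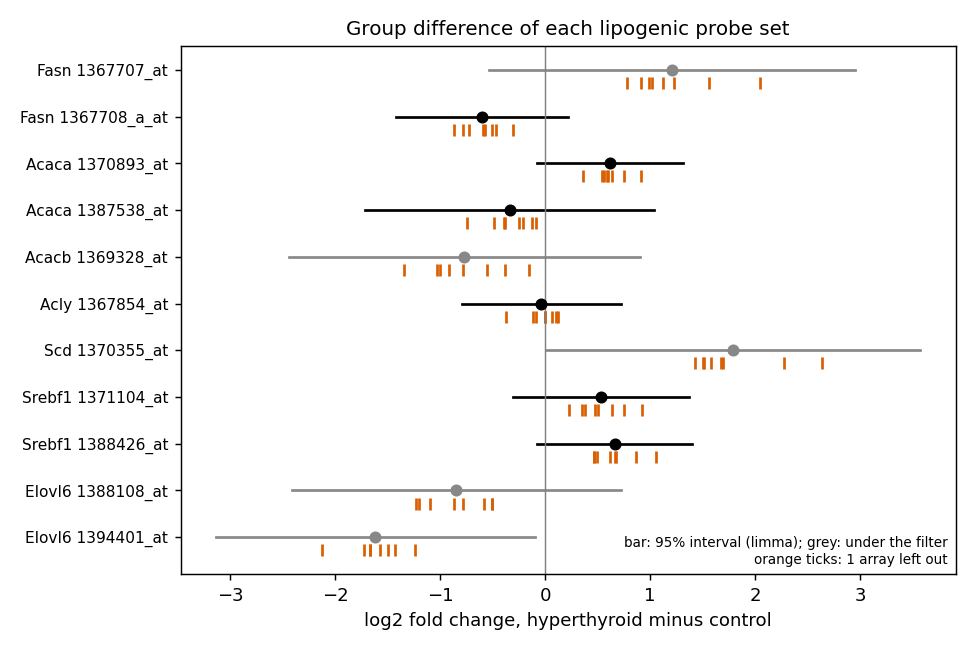
Log2 fold change (hyperthyroid minus control) of each probe set with its 95% limma interval, black above and grey under the filter on low values, and orange ticks for the value when each array is left out in turn. The intervals of all 6 probe sets above the filter include 0, and Srebf1 1388426_at runs from 0.46 to 1.06 with 1 array left out.

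The desaturase gene Scd showed the same split among the hyperthyroid rats, at low signal. Scd 1370355_at read 2.61, 58.3, 49.98 and 71.2 on hyperthyroid replicates 1, 2, 3 and 5, against 2.16, 4.92, 4.57 and 24.6 on control replicates 7, 8, 9 and 11. As for Srebf1, hyperthyroid replicates 2, 3 and 5 exceeded every control and replicate 1 did not. Among controls the patterns differed, because Scd was highest on replicate 11, where both Srebf1 probe sets were the lowest of that group. The share of all probe sets with 3 of 4 hyperthyroid arrays above every control was not counted. The log2 fold change was 1.79 ± 0.85 in the fit with no filter (SE, limma adjusted p = 0.611, unadjusted p = 0.0496), and 2.63 without hyperthyroid replicate 1 (adjusted p = 0.404). Scd2, a second desaturase gene of rodents, read 112 to 237 on hyperthyroid and 68.0 to 235 on control arrays, with a log2 fold change of 0.28 ± 0.36 (SE, limma adjusted p = 0.823). Its other probe set above the filter gave -0.79 ± 0.48.

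The probe sets of Acaca, the cytosolic carboxylase, differed in sign. Acaca 1370893_at read 108, 167, 148 and 150 on hyperthyroid replicates 1, 2, 3 and 5, against 170, 94.7, 80.6 and 52.1 on control replicates 7, 8, 9 and 11. Control replicate 7 was the highest of all arrays, and the other 3 controls were below every hyperthyroid array. The log2 fold change was 0.62 with a 95% interval of -0.075 to 1.31 (limma adjusted p = 0.564), and it was 0.91 without control replicate 7 (adjusted p = 0.466) and 0.36 without control replicate 11. Acaca 1387538_at, just above the filter, read 16.0 to 30.8 on hyperthyroid and 10.1 to 49.8 on control arrays (log2 fold change -0.34 ± 0.64, SE, limma adjusted p = 0.903).

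Acacb, the mitochondrial carboxylase, had a mean log2 level under the filter. Acacb 1369328_at read 59.0, 1.85, 28.8 and 8.48 on hyperthyroid replicates 1, 2, 3 and 5, against 28.03, 16.6, 68.8 and 20.2 on control replicates 7, 8, 9 and 11. It varied more within the hyperthyroid group than between the group means of 24.5 and 33.4 (log2 fold change -0.77 ± 0.80, SE, no filter, limma adjusted p = 0.841). With a mean log2 level of 4.62 it lay just under the filter at 4.69, and Acaca 1387538_at, at 4.81, lay just above it.

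Acly, which supplies cytosolic acetyl-CoA, showed the smallest difference of the 11. It read 72.2, 63.2, 92.5 and 87.9 on hyperthyroid replicates 1, 2, 3 and 5, against 109, 37.9, 86.9 and 113 on control replicates 7, 8, 9 and 11. Every hyperthyroid array lay within the range of the controls. The log2 fold change was -0.037 with a 95% interval of -0.79 to 0.72 (limma adjusted p = 0.984), and its sign changed under 8 of 18 alternatives.

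Fasn, the synthase itself, gave opposite signs in its probe sets. Fasn 1367708_a_at read 47.5, 43.7, 56.1 and 106 on hyperthyroid replicates 1, 2, 3 and 5, against 93.9, 62.1, 69.9 and 174 on control replicates 7, 8, 9 and 11. Hyperthyroid replicates 1, 2 and 3 lay below every control, and replicate 5 and control replicate 11 were the highest of their groups. The log2 fold change was -0.60 with a 95% interval of -1.43 to 0.22 (limma adjusted p = 0.631), and -0.31 without control replicate 11 (-0.14 without control replicate 7 as well). Fasn 1367707_at, under the filter, read 54.0, 11.6, 33.8 and 27.0 on hyperthyroid replicates 1, 2, 3 and 5, against 5.73, 5.20, 2.16 and 74.6 on control replicates 7, 8, 9 and 11. There the 4 hyperthyroid arrays were above 3 of the controls and below control replicate 11, and the log2 fold change was 1.21 ± 0.84 (SE, no filter, limma adjusted p = 0.741) and 2.05 without that array. No direction for Fasn can be read from these values.

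Elovl6, the elongase, lay under the filter in both probe sets. Elovl6 1394401_at read 1.18, 3.39, 25.6 and 7.68 on hyperthyroid replicates 1, 2, 3 and 5, against 24.2, 21.2, 30.1 and 36.1 on control replicates 7, 8, 9 and 11. Hyperthyroid replicates 1, 2 and 5 were below all controls and replicate 3 was within their range. The log2 fold change was -1.62 ± 0.73 (SE, no filter, limma adjusted p = 0.595, unadjusted p = 0.0379). Elovl6 1388108_at read 2.67 to 24.0 on hyperthyroid and 7.13 to 41.8 on control arrays, with -0.85 ± 0.75 (limma adjusted p = 0.806).

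Several other measures separated hyperthyroid replicate 1 from the rest of its group. Mlycd, malonyl-CoA decarboxylase, which removes the product of Acaca and Acacb, read 871 there, and 185, 254 and 206 on hyperthyroid replicates 2, 3 and 5. The controls lay between these, at 367 to 516, so that 3 hyperthyroid arrays were below and 1 above every control (log2 fold change -0.58 ± 0.38, SE, limma adjusted p = 0.619). Pdk4, a kinase that restrains pyruvate oxidation, read 19514 on hyperthyroid replicate 1 and 2167 to 10693 on the other 7 arrays. Among controls, replicate 11 had the highest Pdk4 (10693) and the lowest Srebf1, and replicate 9 had the lowest Pdk4 (2167) and the highest Srebf1. The other controls went the other way: replicate 8 exceeded replicate 7 in Pdk4 (6463 against 5748) and in Srebf1 1388426_at (499 against 439). Control Mlycd did not follow this order, with its lowest value on replicate 8 (367) and its highest on replicate 7 (516). The part of what Pdk4 and Mlycd report in the Srebf1 and Scd values was not tested.

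**Figure D3:**
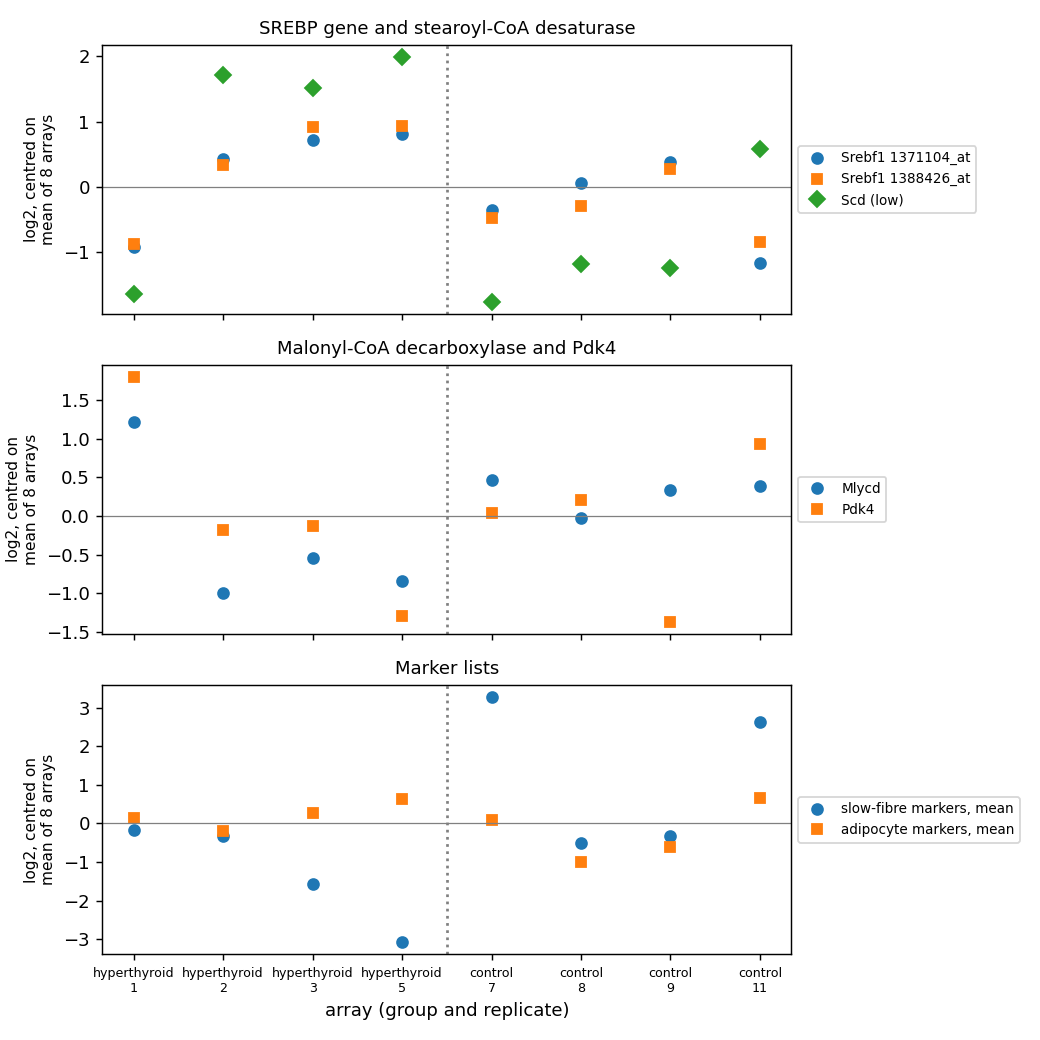
Log2 values per array, each centred on its mean over the 8 arrays, for Srebf1 and Scd (top), Mlycd and Pdk4 (middle) and the means of the slow-fibre and adipocyte markers (bottom). On hyperthyroid replicate 1 both Srebf1 probe sets lie at -0.91 and -0.86 while Mlycd and Pdk4 are at their highest.

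Transcripts of other cell types were summed on each array. Adipocytes also express the lipogenic genes, and the summed intensity of the 9 adipocyte markers above the filter was 2643 to 4939 on hyperthyroid and 3144 to 4334 on control arrays. Most of that sum came from Fabp4 and Plin4, which also occur outside fat cells. Of the 9, 4 had log2 fold changes above 0 and 5 below (median -0.11). The 4 above 0 were Pparg, the master regulator of fat cells (1.56 ± 0.67, SE, limma adjusted p = 0.441, unadjusted p = 0.0364), Cfd (1.48 ± 0.88), Adipoq (1.09 ± 0.72) and Plin1 (0.53 ± 0.70). The 5 below 0 were Plin4 (-0.30 ± 0.18), Fabp4 (-0.16 ± 0.26), Lipe (-0.16 ± 0.20), Aqp7 (-0.14 ± 0.51) and Cidea (-0.11 ± 0.86). All 9 had overlapping groups. Over the 8 arrays Adipoq ranged from 2.66 to 144, Plin1 from 9.81 to 71.9 and Cfd from 5.83 to 577, and Lep and Cidec lay under the filter. The mean of the adipocyte markers was highest on control replicate 11 and hyperthyroid replicate 5 (0.67 and 0.63 log2 above their mean over the arrays), and so was that of 9 macrophage markers (0.83 and 0.91). These arrays also had the highest Fasn 1367708_a_at of their groups. Markers of Schwann cells, which make myelin lipid, summed to 756 to 1277 on hyperthyroid and 496 to 3424 on control arrays. The sum was highest on control replicates 7 and 11, where most of it came from Pmp22 (2537 and 1916). Mag and Sox10 lay under the filter. Of the 7 Schwann cell markers above it, 2 had log2 fold changes above 0 and 5 below (median -0.19). Prx alone had an unadjusted limma p under 0.05 (-1.67 ± 0.61, SE, adjusted p = 0.364). Slow-fibre markers were also highest on control replicates 7 and 11, where both Srebf1 probe sets were below their means over the 8 arrays. The part of fat, nerve or fibre type in these values was not tested.

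By root mean square difference of centred log2 values over the 8 arrays, the nearest genes to Srebf1 were Acsl3, Paip1 and Rab40b (0.23, 0.27 and 0.27, against a median of 0.79 over all other genes). Acsl3, an acyl-CoA synthetase that activates fatty acids, read 239, 545, 632 and 732 on hyperthyroid replicates 1, 2, 3 and 5, against 308, 461, 409 and 238 on control replicates 7, 8, 9 and 11. Because it was chosen for nearness on these arrays, its low values on hyperthyroid replicate 1 and control replicates 7 and 11 follow from that choice. Its log2 fold change was 0.53 ± 0.31 (SE, limma adjusted p = 0.580). The nearest to Fasn 1367708_a_at were Meg3, a long non-coding RNA, Igf1, a growth factor, and Crispld2 (0.16, 0.20 and 0.21, median 0.72). Chosen in the same way, all 3 were highest on control replicate 11, where Fasn 1367708_a_at was highest. Igf1 read 1085 there and 872 on hyperthyroid replicate 5, against 252 to 583 on the remaining arrays.

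The genes around the pathway were then described by role, over the 10200 genes of the gene-level fit. In that fit 0.0686% passed, none of them in the 5 lists below, and 10.6% had an unadjusted p under 0.05. The median log2 fold change of all genes was -0.00029, with 5098 above 0 and 5102 below. The groups did not overlap for 6.55%.

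Among 10 measured genes of substrate supply and chain modification, 7 were above 0 and 3 below, with a median log2 fold change of 0.22, and 3 had an unadjusted p under 0.05. Thrsp, a nuclear protein that T3 induces and that promotes lipogenesis, read 71.5, 88.8, 83.1 and 94.1 on hyperthyroid replicates 1, 2, 3 and 5, against 16.8, 45.03, 36.7 and 10.6 on control replicates 7, 8, 9 and 11. All hyperthyroid arrays were above all controls, replicate 1 included (log2 fold change 1.68 ± 0.46, SE, limma adjusted p = 0.239), but the other 2 probe sets of Thrsp gave 0.19 ± 0.48 and 0.18 ± 0.71. Idh1, a cytosolic source of NADPH, had 0.69 ± 0.26 (adjusted p = 0.379), while its other probe set had -0.47 ± 0.64. Acss2, which makes acetyl-CoA from acetate, had -0.76 ± 0.25 (limma adjusted p = 0.321), with 583 ± 163 in the hyperthyroid and 1001 ± 370 in the control group (SD, n = 4). Elovl1, an elongase of very long chains, had -0.38 ± 0.26.

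Me1, the malic enzyme that supplies NADPH and a known T3 target in rat liver, read 1631 to 2208 on hyperthyroid arrays. Its level was 2263 and 2251 on control replicates 8 and 9. It was 1312 and 1278 on the other controls, replicates 7 and 11, which were high in slow-fibre transcripts. Its log2 fold change was 0.15 ± 0.20 (SE, limma adjusted p = 0.834), and its other probe set gave 0.39 ± 0.24.

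Of 20 regulators of SREBP and lipogenic transcription, 14 were above 0 and 6 below (median 0.16), and 2 had an unadjusted p under 0.05. Fbxw7, a ubiquitin ligase subunit that targets nuclear SREBP for degradation, read 163, 157, 131 and 108 on hyperthyroid replicates 1, 2, 3 and 5, and 77.7 to 87.1 on controls. The groups did not overlap (log2 fold change 0.71 ± 0.23, SE, limma adjusted p = 0.307), although its second probe set gave 0.19 ± 0.34. Usf1, an E-box factor of the Fasn promoter, had 0.66 ± 0.29 (adjusted p = 0.441) and -0.77 ± 0.54 in its 2 probe sets. Mlxip, a glucose-sensing factor, had 0.38 ± 0.22, and its other probe set had -1.16 ± 0.57. Mlxipl, which encodes ChREBP, had 0.64 ± 0.67, with 232 on hyperthyroid replicate 1 against 14.3 to 116 elsewhere.

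Genes that hold or release SREBP did not pass the test either. Insig1, an SREBP target that retains SREBP in the endoplasmic reticulum, read 339 to 546 on hyperthyroid and 302 to 375 on control arrays (log2 fold change 0.29 ± 0.17, SE, limma adjusted p = 0.585). Scap, the escort of SREBP, gave -0.21 ± 0.24, and Srebf2, which encodes the sterol-responsive SREBP-2, gave -0.21 ± 0.20 (limma adjusted p = 0.795 and 0.755).

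Of the 12 genes of malonyl-CoA control and use, 6 were above 0 and 6 below (median 0.11), and 1 had an unadjusted p under 0.05. This was Prkab1, a subunit of AMP-activated protein kinase, which inactivates acetyl-CoA carboxylase. It read 588, 418, 430 and 266 on hyperthyroid replicates 1, 2, 3 and 5, and 217 to 253 on controls, without overlap (log2 fold change 0.81 ± 0.22, SE, limma adjusted p = 0.239). The regulatory subunits Prkag2 and Prkag3 had 0.66 ± 0.33 and 0.66 ± 0.35 (adjusted p = 0.515 and 0.542), each with overlapping groups.

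Of 12 genes of glycerolipid assembly, 6 were above 0 and 6 below (median 0.076), and 3 had an unadjusted p under 0.05, all higher in hyperthyroid muscle and without overlap of the groups. Lpin1, a phosphatidate phosphatase, read 1618 to 2604 against 1060 to 1539 (log2 fold change 0.70 ± 0.18, SE, limma adjusted p = 0.222), and its other probe set gave 0.89 ± 0.22, again without overlap. Acsl4, an acyl-CoA synthetase that prefers polyunsaturated fatty acids, read 744 on hyperthyroid replicate 1, 314 to 357 on the others and 206 to 251 on controls (0.83 ± 0.25, adjusted p = 0.273). Agpat1, which makes phosphatidic acid, had 0.70 ± 0.25 (adjusted p = 0.351), while its second probe set had -0.29 ± 0.36.

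Of 15 genes of cholesterol synthesis, the chief targets of SREBP-2, 7 were above 0 and 8 below (median -0.072), and 1 had an unadjusted p under 0.05. Fdft1, squalene synthase, was lower on every hyperthyroid array (170 to 272 against 288 to 393, log2 fold change -0.50 ± 0.19, SE, limma adjusted p = 0.40, unadjusted 0.0237), and its second probe set gave -0.036 ± 0.21. Sc5d, a late sterol desaturase, had 0.52 ± 0.24, and Cyp51 and Msmo1, both in the removal of methyl groups from lanosterol, had -0.36 ± 0.20 and 0.28 ± 0.20 (adjusted p = 0.476, 0.566 and 0.643).

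**Figure D4:**
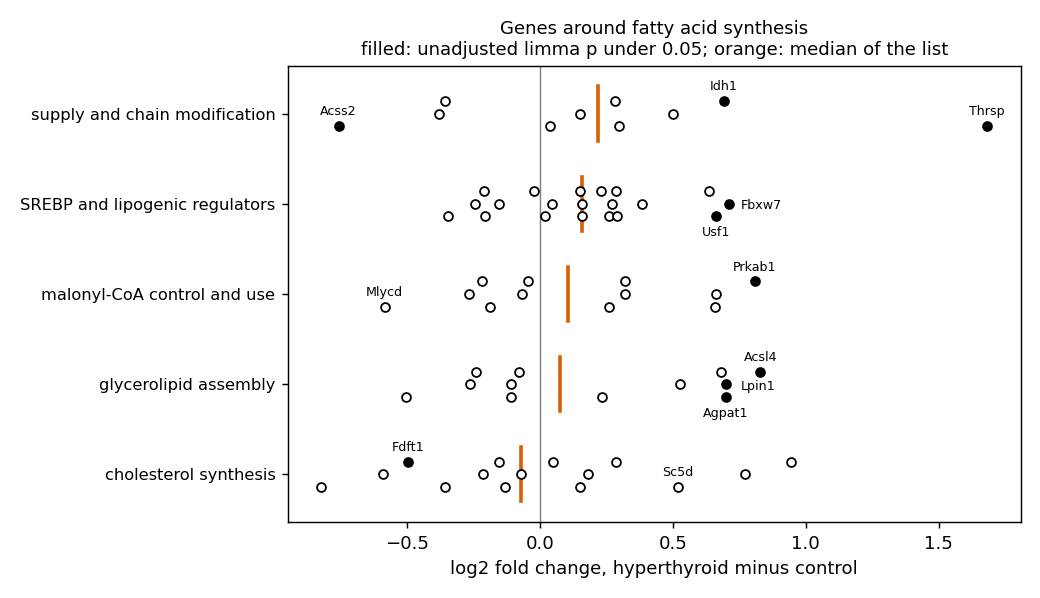
Log2 fold change (hyperthyroid minus control) of each measured gene in 5 lists around fatty acid synthesis, filled where the unadjusted limma p is under 0.05, with the median of each list in orange. Medians run from -0.072 for cholesterol synthesis to 0.22 for substrate supply and chain modification, and no gene passed after adjustment over all genes.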

How the data were processed

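One Affymetrix array per rat was analysed, 4 hyperthyroid and 4 control, with groups taken from the sample titles. The deposited values are linear intensities made with GCOS, per the submitters' processing notes; the sources used here give neither its settings nor a build. The mean after leaving out 2% of values at each end was 150 on every array. Such scaling removes differences in total RNA. Detection calls were not used here.

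A pseudocount of 3.41 (the 10th percentile) was added before log2; folds are on that scale and understate changes of low transcripts. After 57 control probe sets were left out, probe sets with a mean log2 value above the 40th percentile, 4.69, were kept (18625). They were tested with limma 3.58.1 in R 4.3.3 (lmFit, eBayes with a variance trend, two-sided, Benjamini-Hochberg over all probe sets kept, threshold 0.05), which was checked on simulated data. Probe sets under the filter come from the same fit over all 31042. At gene level, the brightest kept probe set stood for each of 10200 genes. Symbols are the platform's; 20758 of 20826 matched RefSeq identifiers and none changed. Labels state biological replicates.

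The members and lists were chosen with earlier results of these data known. Named genes were the members, up to 4 genes of smallest p per pathway list, 8 fixed genes (Thrsp, Me1, Scd2, Mlxipl, Srebf2, Insig1, Scap and Mlycd) and the 3 nearest in pattern to the 2 most variable members above the filter. Pdk4 and the marker genes named with values were chosen after their values were seen. Alternatives changed the normalization, pseudocount, filter, variance model, array weights and arrays included.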

Additional observations from a re-analysis of the deposited data

Results flagged for a closer look

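Within a group of 4 arrays, 1 array stood far from the other 3 in 8 of the 82 groups of values examined. This was judged by Dixon's ratio, the gap to the nearest array divided by the range of the group, on linear intensities. The chance rate of about 1 in 20 holds for normally distributed values, which was not checked here. The ratio was not taken on the log2 values used in the other tests, where the flags may differ. Of the 8, 3 are in Meg3 and Crispld2, which were chosen for a pattern like that of Fasn 1367708_a_at, so the number is not to be set against chance. Control replicate 11 read 74.6 for Fasn 1367707_at (the other controls 2.16 to 5.73), 24.6 for Scd (2.16 to 4.92) and 271 for Meg3 (93.8 to 108). Hyperthyroid replicate 1 read 871 for Mlycd (the others of its group 185 to 254) and 744 for Acsl4 (314 to 357). Hyperthyroid replicate 5 read 145 for Meg3 (76.1 to 86.2) and 252 for Crispld2 (86.4 to 103), and hyperthyroid replicate 2 read 150.4 for Usf1 (103 to 111).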

How the results depend on the processing

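None of the 6 kept member probe sets passed the limma threshold under the 18 alternatives (17 for Acaca 1387538_at, which a filter at the 60th percentile left out). The 5 under the filter did not pass in the fit with no filter or with each of the 8 arrays left out of it, and were not run under the others. Acly (-0.037) changed sign after quantile normalization (0.049), median centring (0.18), array weights (0.11) and without both control replicates 7 and 11 (0.42), and ran from -0.38 to 0.12 with 1 array left out. Acaca 1387538_at (-0.34) was 0.35 without both control replicates 7 and 11. The other 4 kept probe sets kept their sign, and so did the 5 under the filter with each array left out, an alternative chosen after seeing the data. Of 10200 genes 7 passed, and 12 did so with median centring, 11 of 14217 with no filter, 14 with a robust variance, 0 with no variance trend (1080 at an unadjusted p under 0.05 in the main fit), 3 without both control replicates 7 and 11, 1 when probe sets were averaged, and 1 to 7 with 1 array left out. Median centring moved the median of all genes to 0.22 and those of the 5 lists to 0.15 to 0.44, so list medians are relative to that shift. The list medians were small and their signs not firm: that of the supply list was -0.093 without control replicate 9, and that of cholesterol synthesis was 0.061 after quantile normalization. No paired analysis was possible because the groups share no replicate numbers.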
